A study of Mus musculus with 1829 samples.

Results

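CD4+ T cells of NOD/ShiLtJ mice that bound an IAg7 tetramer loaded with residues 12-20 of the insulin B chain were compared between blood and lymph node. Cells were chosen by their labels, as 12-20 cells of either tissue at 7 or 8 weeks of age, and then by the number of assays detected in their well. Of the 1829 single cells in the series, 415 came from these tissues and ages, and 145 of them, 88 from blood and 57 from lymph node, entered the comparison. NOD mice develop autoimmune diabetes without treatment, and IAg7 is their class II molecule, which presents peptides to CD4+ T cells. Both groups are of the same strain, and the labels give no genetic change and no treatment for any mouse. The labels give neither sex nor the site of the lymph nodes.

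Each sorted cell was assayed for 96 transcripts by quantitative PCR on a microfluidic chip. The measurement is Ct, the PCR cycle in which the fluorescence of an assay passed a threshold. An assay was called detected when the instrument's call was pass and its Ct was under 24, and its log2Ex was then 24 minus Ct, or 0 when it was not detected. One unit of log2Ex is 1 PCR cycle. Cells of 1 animal are not replicates of a tissue, so values were averaged over the kept cells of 1 animal, tissue and chip. Such an average is called a unit here, and it had to rest on at least 5 cells. A difference between unit means holds both how many cells detected a gene and how strongly they did, so it is not a fold change.

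Blood gave 5 units, all of 8-week animals: M1 with 18 cells, M2 with 24, M3 with 13, M4 with 9, and a further sample labelled M3 with 24 cells. Lymph node gave 4 units: the 7-week animals M2 with 17 cells, M3 with 20 and M7 with 9, and the further 8-week M3 with 11 cells. That further M3 had its blood, lymph node, spleen and islets on 1 chip and is called the shared-chip animal. Whether it is the same mouse as the other 8-week blood M3 is not stated. If it is, the 5 blood units come from 4 mice. The 9 units lay on 6 chips, and only that chip held both tissues. Age, chip and tissue therefore cannot be told apart outside the shared-chip animal. Below, unit values are given in the order M1, M2, M3, M4 and shared-chip animal for blood, and M2, M3, M7 and shared-chip animal for lymph node.

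CD4+ T cells leave the lymph node through the lymph and reach the blood, and a cell that has met its antigen changes its receptors on the way. Ccr7 is the chemokine receptor that draws naive and central memory T cells into lymph nodes. T helper 1 (Th1) cells are driven by the transcription factor T-bet, the product of Tbx21, secrete interferon-gamma from Ifng, and carry the chemokine receptor Cxcr3, which guides them to inflamed tissue. Interleukin-12 and interleukin-18 promote this program through their receptors and through Stat4. In NOD mice, Th1 cells are known as effectors of islet inflammation.

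The labelled cell type was checked first. Cd3e, a subunit of the T cell receptor complex, was detected in 86 of 88 blood cells (97.7%) and in 55 of 57 lymph node cells (96.5%). Cd28, a co-stimulatory receptor of T cells, was detected in 76 and 46 of them. Zap70, a kinase of T cell receptor signalling, was detected in 72 of 88 blood cells (81.8%) but in only 25 of 57 lymph node cells (43.9%). Cd8a, which marks the other main T cell lineage, was detected in 1 blood cell and in 0 of 57 lymph node cells, which allows a share of up to 5.26%. The co-stimulatory ligands Cd80, Cd86 and Cd40 of antigen-presenting cells were each detected in at most 3 cells of a tissue. Over Cd8a and these 3 ligands the summed log2Ex per unit ranged from 0 to 0.84 in blood and from 0 to 0.95 in lymph node. Cd4 itself was found in 63 of 88 cells from blood (71.6%) and 54 of 57 from lymph node (94.7%), although the labels call both CD4+ T cells.

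Kept blood cells detected more assays than kept lymph node cells. The mean number of assays per kept well was 41, 42, 41.1, 38.9 and 42.7 in the blood units and 33.1, 37.8, 30.6 and 34 in the lymph node units. The groups did not overlap. They averaged 41.1 ± 1.45 (SD, n = 5) and 33.8 ± 2.98 (SD, n = 4), a difference of 7.30 assays (two-sided exact permutation test over units, p = 0.016). That is the smallest p that this test, which doubles the one-sided p, allows for 5 against 4 units. Gapdh, a housekeeping transcript detected in every kept cell of both tissues, averaged 13.98 ± 0.17 in blood and 13.62 ± 0.33 in lymph node and did not pass the test (limma, adjusted p = 0.42).

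**Figure D1:**
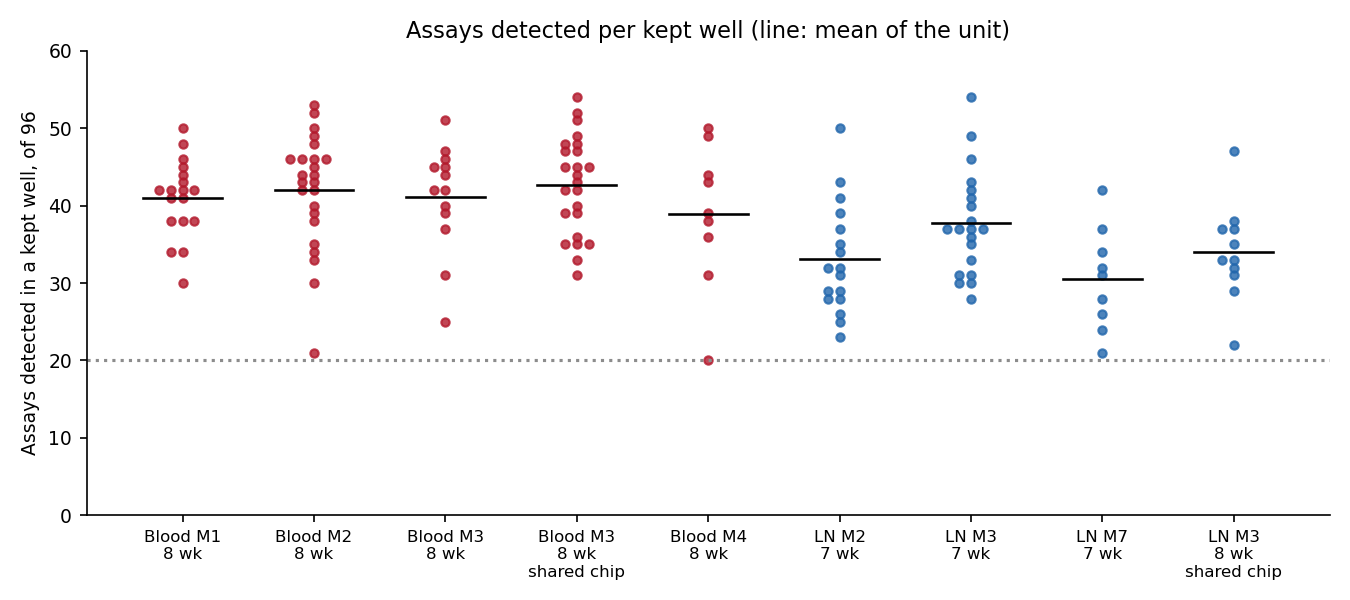
Assays detected in each kept well (points, of 96) for the 9 units, with the mean of a unit as a line and the minimum of 20 assays as a dotted line. Unit means lie between 38.9 and 42.7 in blood (red) and between 30.6 and 37.8 in lymph node (blue, LN).

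The kept cells are a part of what was sorted. Of 208 wells of 8-week blood 88 had at least 20 assays, and of 85 wells of 7-week blood only 1 did, so no 7-week blood unit could be formed. The kept share ran from 19.6% in M4 to 100% in the shared-chip animal for 8-week blood. It ran from 40.9% to 83.3% over the 4 lymph node units, while the 7-week lymph node animals M10 and M11 kept 0 of 14 and 0 of 17 wells. Over all animals of both ages the kept share was 34.5% ± 34.4 (SD, n = 7) in blood and 41.2% ± 35.1 (SD, n = 6) in lymph node (two-sided exact permutation test, p = 0.72). With the wells under 20 assays left in, 0 of 63 genes passed the test, and 4 had an unadjusted p under 0.05 (limma, 7 against 6 units), so every difference below is one between cells that gave at least 20 assays.

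In these cells the transcripts of the Th1 program were higher in blood and Ccr7 was lower. Of 71 genes tested, those detected in at least 5% of the cells of either tissue, 20 were higher in blood (28.2% of those tested) and 2 were lower (2.82%), at an adjusted p under 0.05 (limma on unit means, Benjamini-Hochberg over the 71 genes). The largest differences were those of Tbx21, Cxcr3, Ccr7, Ifng and Il2ra, each of 4.80 to 5.73 cycles. The median difference over all 71 genes was 0.64 in favour of blood. With each unit centred on its own mean over the genes, 9 genes were higher and 13 lower. That centring takes the mean difference, 1.08, off every gene, so genes near 0 in both tissues come out lower in blood. Of the 22 genes called here 11 passed there, and all 22 kept their direction. In wells with 25 to 45 assays, with units of at least 3 cells, 13 genes were higher and 2 lower, and 15 of the 22 passed. For 14 of the 20 higher genes and for both lower genes the blood units and the lymph node units did not overlap, as they did not for 18 of all 71 genes (25.4%).

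Tbx21 had a mean log2Ex of 6.07, 6.72, 7.02, 6.74 and 4.74 in the blood units and of 0.34, 1.13, 0.00 and 0.63 in the lymph node units. Every blood unit lay above every lymph node unit, with the shared-chip animal the lowest of the blood units. The difference was 5.73 ± 0.51 (SE; limma, adjusted p = 2.84e-05). Tbx21 was detected in 61 of 88 blood cells and 5 of 57 lymph node cells. In lymph node M7 it was detected in none of 9 cells, which allows a share of up to 33.3%.

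Ifng, the effector cytokine of Th1 cells, averaged 5.61, 6.13, 6.85, 5.47 and 3.79 in blood and 1.08, 1.92, 0.00 and 0.00 in lymph node. The groups again did not overlap, and the shared-chip animal was again the lowest of the blood units (difference 4.82 ± 0.64 SE; limma, adjusted p = 0.000264). Cxcr3 averaged 7.92, 7.15, 8.87, 6.99 and 6.12 in blood and 1.83, 3.57, 0.00 and 1.95 in lymph node, without overlap. Its difference was 5.57 ± 0.74 (SE; limma, adjusted p = 0.000264).

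**Figure D2:**
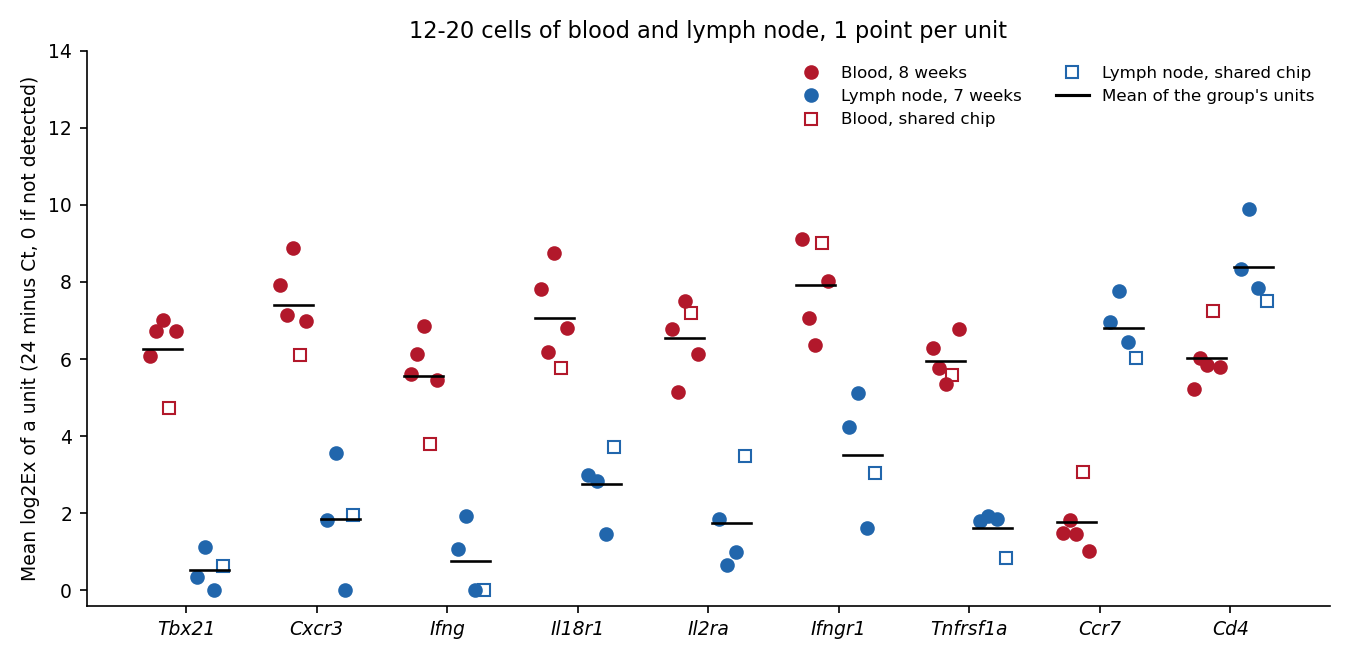
Mean log2Ex of each unit (y axis, in PCR cycles) for 9 of the called genes in blood (red) and lymph node (blue); open squares are the 8-week animal with both tissues on 1 chip and lines are group means. For Tbx21 the blood units lie between 4.74 and 7.02 and the lymph node units between 0.00 and 1.13, while for Ccr7 and Cd4 the lymph node units lie higher.

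The receptors and signal carriers upstream of this program showed the same direction, with more spread. Il18r1, the ligand-binding chain of the interleukin-18 receptor, averaged 7.83, 6.18, 8.75, 6.80 and 5.78 in blood and 2.98, 2.83, 1.46 and 3.72 in lymph node. Its groups did not overlap (difference 4.32 ± 0.67 SE; limma, adjusted p = 0.000703). Stat4, which carries the interleukin-12 signal, was higher by 2.39 ± 0.72 (SE; limma, adjusted p = 0.029), with blood units between 4.00 and 7.72 and lymph node units between 2.55 and 4.57, which overlap. The assay named Il-12rb, whose name does not settle which receptor chain it measures, averaged 4.20, 4.88, 5.20, 3.82 and 3.16 in blood and 0.85, 1.24, 0.00 and 4.04 in lymph node (limma, adjusted p = 0.023). There the shared-chip animal went the other way, with its lymph node above its blood. Both calls rested on several units: Stat4 did not pass without blood M1 or without lymph node M2, M7 or the shared-chip animal, and Il-12rb did not pass without blood M3 or without lymph node M2, M3 or M7. Of 9 tested genes on the list of Th1 and effector genes, 7 were higher and 0 lower, beside 28.2% and 2.82% over all 71 genes tested, and the median difference was 3.08 against 0.64. Tnf, which encodes tumour necrosis factor, did not pass (0.64 ± 0.88 SE, adjusted p = 0.64). The tenth gene on the list, Il2, was detected in none of the 145 cells.

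Receptors through which other cells act on T cells were also higher. Tnfrsf1a, a receptor for tumour necrosis factor, averaged 6.29, 5.76, 5.35, 6.78 and 5.60 in blood and 1.80, 1.93, 1.85 and 0.83 in lymph node. The groups did not overlap, and the difference was 4.35 ± 0.41 (SE; limma, adjusted p = 2.84e-05). Il2ra, the alpha chain of the interleukin-2 receptor, averaged 6.77, 5.13, 7.51, 6.12 and 7.20 in blood and 1.85, 0.66, 1.0 and 3.48 in lymph node. It differed by 4.80 ± 0.66 (SE; limma, adjusted p = 0.000299), with no overlap, and the shared-chip animal had the highest lymph node value. Ifngr1, a chain of the interferon-gamma receptor, averaged 9.12, 7.05, 6.36, 8.03 and 9.01 in blood and 4.24, 5.12, 1.61 and 3.05 in lymph node. Its difference was 4.41 ± 0.80 (SE; limma, adjusted p = 0.00185). Of 8 cytokine receptors tested 4 were higher and 0 lower, beside 28.2% higher and 2.82% lower over all genes tested, with a median of 2.17. Il7r, the receptor for the survival cytokine interleukin-7, was among the other four: the 5 blood units ran from 4.13 to 9.19 and the 4 lymph node units from 4.56 to 5.96 (adjusted p = 0.51).

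Of the tumour necrosis factor family, 2 of 5 tested genes were higher and 0 lower, a count too small to set apart from the 28.2% over all genes tested. The second was Tnfaip3, an inhibitor of NF-kappa-B signalling, which was detected in most cells of both tissues (86 of 88 and 48 of 57) and differed by 2.51 ± 0.57 (SE; limma, adjusted p = 0.00848). Of 10 genes on the list of T cell receptor and kinase signalling, 3 were higher and 0 lower, near the 28.2% higher over all genes tested, with a median of 0.79 against 0.64. Zap70, the kinase next to the T cell receptor, averaged 7.07, 7.05, 7.11, 7.16 and 7.08 in blood and 2.48, 4.67, 1.60 and 5.53 in lymph node. The blood units lay between 7.05 and 7.16, whereas the lymph node units spread from 1.60 to 5.53 (difference 3.52 ± 0.72 SE; limma, adjusted p = 0.00428). Jak2, a kinase bound to cytokine receptors, was higher by 3.17 ± 0.57 (SE; limma, adjusted p = 0.00185). Further called genes were Stat3, Fyn, Map2k6, the adhesion molecule Icam1, and Bcl2, which protects cells from apoptosis, with differences between 1.52 and 2.16. In the 9 fits that left out a unit in turn, these kept their direction, but Fyn and Stat3 passed only without blood M4 or lymph node M3, Map2k6 only without blood M1 or that of the shared-chip animal, and Bcl2 in 3 fits.

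Ccr7 was the gene most clearly lower in blood. It averaged 1.50, 1.83, 1.47, 1.02 and 3.08 in the blood units and 6.95, 7.77, 6.45 and 6.02 in the lymph node units. No blood unit reached a lymph node unit, and the shared-chip animal lay closest to the other group on both sides. The difference was -5.02 ± 0.51 (SE; limma, adjusted p = 3.54e-05), from detection in 19 of 88 blood cells and 47 of 57 lymph node cells. Among the 7 chemokine receptors tested, 3 were higher and 1 was lower, beside 28.2% and 2.82% over all genes tested. Besides Cxcr3, they included Ccr2, the receptor for the monocyte chemoattractant Ccl2. Ccr2 was detected in 85 of 88 and in 55 of 57 cells, so its difference of 1.43 ± 0.49 (SE; limma, adjusted p = 0.046) was one of level. That call held in 1 of the 9 fits that left out a unit, the one without blood M3.

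Cd4 was the second gene lower in blood. It averaged 5.22, 6.03, 5.84, 5.80 and 7.25 in blood and 8.35, 9.89, 7.85 and 7.51 in lymph node, a difference of -2.37 ± 0.57 (SE; limma, adjusted p = 0.00969). Within the shared-chip animal the difference was -0.26, and in the fit of the 8-week units alone, 5 against 1, the difference was -1.48 (adjusted p = 0.31). Of the 25 blood cells in which Cd4 was not detected, 23 had Cd3e, 18 had Tbx21, 20 had Cxcr3 and 1 had Cd8a. Their median number of assays was 40, against 43 in the 63 blood cells with Cd4. Restricted to the 63 blood and 52 lymph node cells that detected both Cd4 and Cd3e, 24 genes were higher and 2 lower. Of the 22 calls 20 held in those cells; Cd4 itself no longer passed (-0.23, limma, adjusted p = 0.71), and Nr4a1 passed as lower (-1.78, adjusted p = 0.048). There Tbx21 differed by 6.20 (limma, adjusted p = 5.29e-05) and Ccr7 by -4.97 (adjusted p = 3.80e-05).

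Genes of other helper subsets mostly did not pass, beside 28.2% higher and 2.82% lower over all 71 genes tested. With 2 to 4 tested genes each, these lists are too small to set apart from those shares. None of the 4 follicular helper genes tested passed, with a median difference of -0.14. Bcl6, the transcription factor of these cells, was found in 13 of 88 cells from blood and 10 of 57 from lymph node, and Il21, their cytokine, in 2 and 3. None of the 4 Th2 genes passed either (median -0.14), and of 2 Th17 genes tested Stat3 passed. Of the 4 regulatory T cell genes, Il2ra alone passed. Foxp3, the transcription factor of regulatory T cells, was detected in 5 of 88 blood cells and 8 of 57 lymph node cells, and its difference of -0.51 ± 0.35 (SE) did not pass (adjusted p = 0.31). Ctla4, an inhibitory receptor, averaged 0.76 ± 0.59 in blood and 2.13 ± 1.17 in lymph node (difference -1.38 ± 0.56 SE; limma, adjusted p = 0.098), and it passed in the fit without lymph node M7 (-1.77, adjusted p = 0.045). Icos, a co-stimulatory receptor of activated cells, averaged 4.96 ± 2.02 and 2.48 ± 1.40 (adjusted p = 0.099); in cells with both Cd4 and Cd3e it passed (3.0, adjusted p = 0.015). With each unit centred on its mean, Foxp3 (-1.59, adjusted p = 0.0077), Il10 (-1.56, 0.012), Il21 (-1.32, 0.012), Pdcd1 (-1.61, 0.010) and Ctla4 (-2.46, 0.0020) passed as lower in blood. Before centring they differed by -0.51, -0.48, -0.24, -0.53 and -1.38, and none passed. Centring took 1.08 off each, so these passes alone do not show a lower level in blood. None of the 11 interferon-stimulated genes tested passed (median 0.50), beside 28.2% higher and 2.82% lower over all genes tested. Ifit3 averaged 9.84 ± 0.38 and 9.82 ± 0.66, and Isg15 7.82 ± 1.46 and 7.92 ± 0.57.

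The activation genes were mixed. Cd44, a marker of antigen-experienced T cells, was detected in 19 of 88 and 5 of 57 cells and differed by 0.27 ± 0.37 (SE, adjusted p = 0.64). Nr4a1, an early target of T cell receptor signalling, was detected in 17 of 88 blood cells and in 22 of 57 lymph node cells. Its difference was -1.32 ± 0.68 (SE, limma, adjusted p = 0.17). Within the shared-chip animal it went the other way, at 0.35, with 5 of 24 blood and 2 of 11 lymph node cells. Lymph node M2 had the highest share of detecting cells, 64.7%, against 18.2% to 33.3% in the other lymph node units. Nr4a1 passed as lower in the cells with Cd4 and Cd3e, and with each unit centred, which took 1.08 off every gene (-2.40, limma, adjusted p = 0.018). The inhibitory receptor Pdcd1 was detected in 9 cells of each tissue (adjusted p = 0.42).

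Most of these differences were seen in how many cells detected the gene, though fewer genes could be fitted on level. Of the 22 called genes 18 passed on share, and 3 of the 15 that could be fitted passed on level. Some unit levels rested on 1 cell, as for Tnfrsf1a in the lymph node of the shared-chip animal and Ccr7 in blood M4. On the share of cells detected, 17 of 70 genes were higher in blood and 2 lower, whereas on the level within detecting cells 4 of 49 were higher and 0 lower (limma, genes detected in every unit). The share that detected Tnfrsf1a was 69.0% ± 6.87 (SD, n = 5) in blood and 20.0% ± 7.33 (SD, n = 4) in lymph node, while its level in detecting cells was 8.64 ± 0.31 and 8.21 ± 0.70. For Ccr7 the shares were 19.5% ± 8.49 and 80.7% ± 7.33. Among the cells that had Ccr7 its level was 9.13 ± 0.28 in blood and 8.41 ± 0.17 in lymph node (difference 0.72; limma, adjusted p = 0.092). Levels within detecting cells rose for Il18r1 (1.87 ± 0.42 SE), Ifngr1 (1.56 ± 0.36 SE), Ccr2 (1.61 ± 0.32 SE), each with an adjusted p of 0.016, and for the kinase Gsk3b (1.40 ± 0.36 SE, adjusted p = 0.027). Tbx21, Cxcr3 and Ifng could not be fitted on level, since at least 1 lymph node unit had no detecting cell. Where cells detected it, Tbx21 had a level of 8.95 ± 0.82 (SD, 5 units) in blood and 6.75 ± 0.93 (SD, 3 units) in lymph node. Those lymph node levels came from 1 to 3 cells each, and the difference was not tested.

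**Figure D3:**
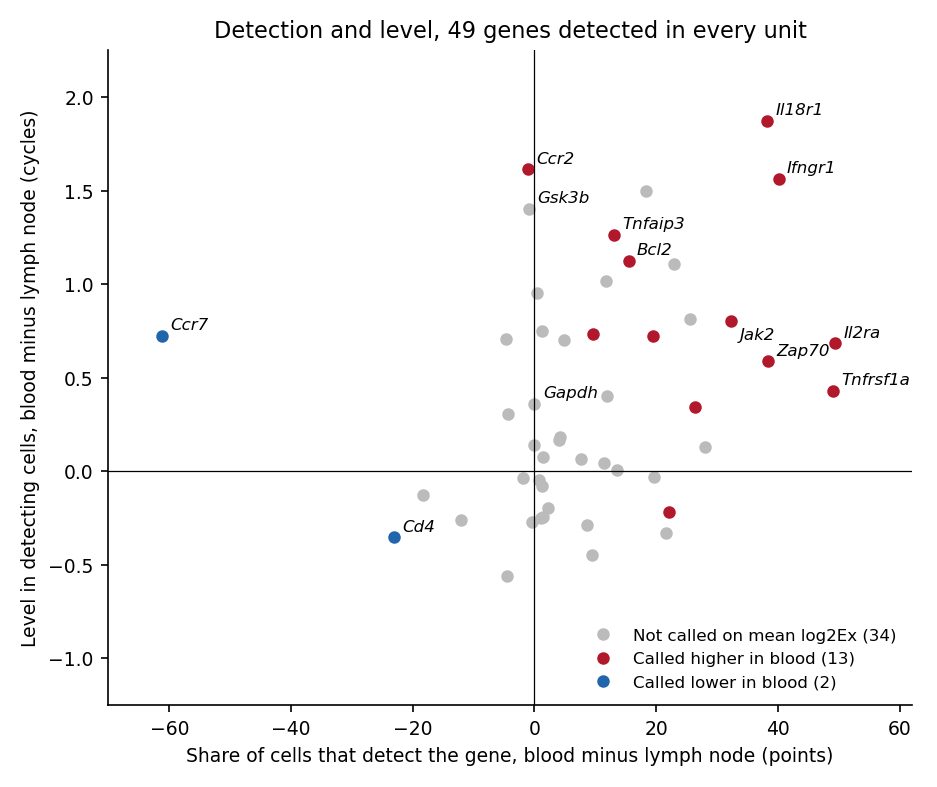
Difference in the share of cells that detect a gene (x axis, percentage points) against the difference in level among the detecting cells (y axis, PCR cycles), blood minus lymph node, for the 49 genes detected in every unit. Ccr7 lies far to the left at a level difference of 0.72, and Ccr2 lies near 0 on the x axis at 1.61.

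Within blood, the Th1 transcripts occurred in the same cells. Of 88 blood cells, 46 detected all of Tbx21, Ifng and Cxcr3, 23 detected none of them, 3 detected 1 and 16 detected 2. By unit, the share with all of them ran from 37.5% in the shared-chip animal to 62.5% in M2 and averaged 53.4% ± 10.2 (SD, n = 5). In lymph node 43 of 57 cells detected none of them and 3 detected all, with unit shares between 0% and 10%. In blood, Tbx21 and Ccr7 were seldom detected together. There 60 cells had Tbx21 and not Ccr7, 18 had Ccr7 and not Tbx21, 1 had both and 9 had neither. In lymph node the same counts were 2, 44, 3 and 8, so 3 of its 5 cells with Tbx21 also had Ccr7. The share of cells with Ccr7 and not Tbx21 ran from 11.1% to 33.3% over the blood units and from 72.7% to 80.0% over the lymph node units, without overlap.

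**Figure D4:**
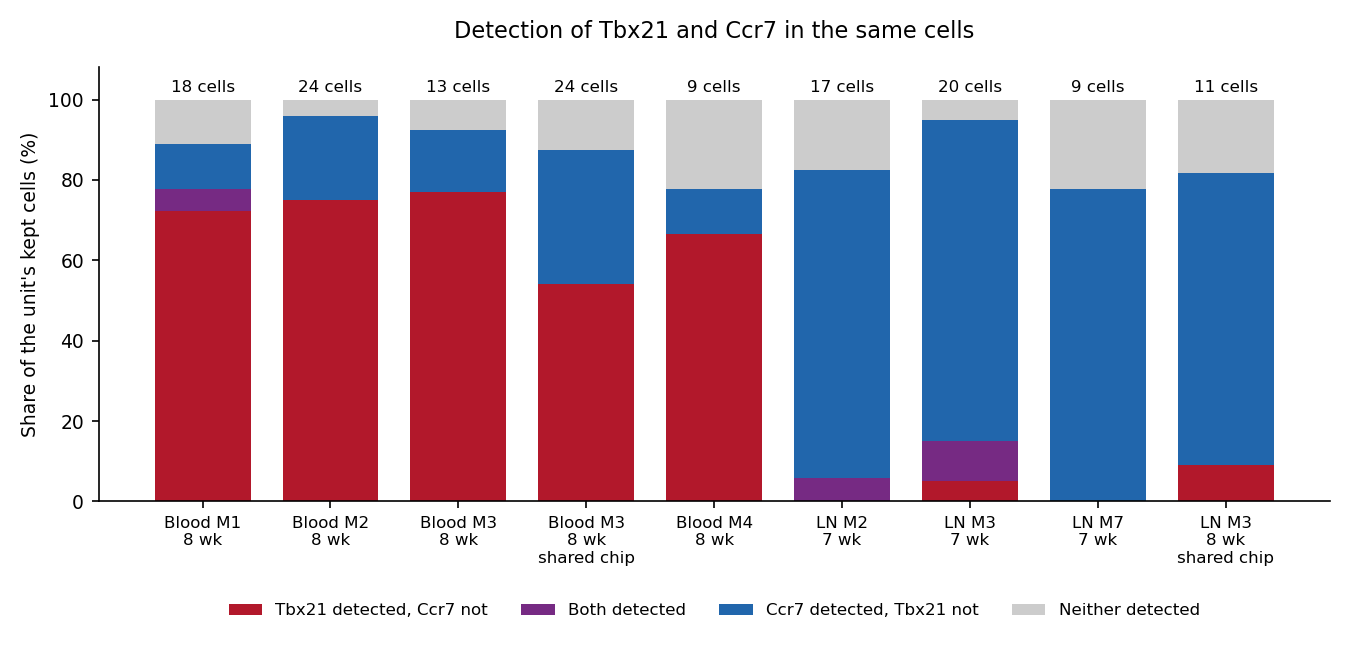
Share of the kept cells of each unit (y axis, percent) by detection of Tbx21 and Ccr7, with the number of cells above each bar. Cells with Tbx21 and without Ccr7 (red) make up 54.2% to 76.9% of the blood units and 0% to 9.09% of the lymph node units (LN).

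The 27 blood cells without Tbx21 were described further, as counts over cells that share animals and with no test, since they were picked by a measured value. They detected a median of 36 assays, against 44 in the 61 blood cells with Tbx21. Of the 27, 18 had Ccr7 (66.7%), 4 had Cxcr3 (14.8%) and 3 had Ifng (11.1%). The corresponding counts in the 52 lymph node cells without Tbx21 were 44 (84.6%), 8 (15.4%) and 3 (5.77%). Of the blood cells with Tbx21, 59 of 61 had Cxcr3 (96.7%) and 46 of 61 had Ifng (75.4%). Other genes did not follow Tbx21 so closely. Ifngr1 was detected in 53 of 61 blood cells with Tbx21 (86.9%), in 22 of 27 without it (81.5%) and in 26 of 52 lymph node cells without it (50.0%). For Jak2 the counts were 49 of 61, 20 of 27 and 21 of 52, and for Tnfrsf1a 48 of 61, 12 of 27 and 12 of 52. Il2ra was detected in 48 of 61, 11 of 27 and 10 of 52 of these cells.

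The shared-chip animal compares both tissues of 1 mouse, at 1 age, on 1 chip, with 24 blood and 11 lymph node cells. With 1 sample of each tissue there is no test, and the intervals below are exact Clopper-Pearson intervals at 95% that cover counting error only. Tbx21 was detected in 13 of its 24 blood cells (54.2%, 32.8 to 74.4%) and in 1 of its 11 lymph node cells (9.09%, 0.23 to 41.3%). Ifng was detected in 9 of 24 (37.5%, 18.8 to 59.4%) and in 0 of 11 (0%, 0 to 28.5%). Cxcr3 was detected in 14 of 24 (58.3%, 36.6 to 77.9%) and 2 of 11 (18.2%, 2.28 to 51.8%), and Ccr7 in 8 of 24 (33.3%, 15.6 to 55.3%) and 8 of 11 (72.7%, 39 to 94.0%). For these genes the shares differed in the direction of the whole comparison, but the intervals of the tissues overlap. Ifngr1, in 22 of 24 (91.7%, 73.0 to 99.0%) against 4 of 11 (36.4%, 10.9 to 69.2%), was the one called gene whose intervals did not.

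Of the 20 genes called higher in blood, 19 were higher in the blood of this animal too, with Il-12rb the exception (3.16 in blood and 4.04 in lymph node). Both genes called lower were lower there. In the remaining 4 blood and 3 lymph node units all 22 went the called way. The units of this animal and the remaining units are all part of the fit that called the genes. Neither count is therefore independent of the calls. Of the 49 genes that did not pass, 39 had a higher mean in this animal's blood, whose cells averaged 42.7 assays against 34. The median difference of the 20 genes was 2.22 on the chip and 3.47 in the remaining units. Tbx21 differed by 4.10 on the chip and 6.15 elsewhere, Ccr7 by -2.94 and -5.61, and Cd4 by -0.26 and -2.97. Ifngr1 went the other way in size, at 5.96 and 3.98. Il7r differed by 3.89 on the chip and 0.05 elsewhere. In a fit with chip as a fixed block, which uses this animal alone for the contrast and leaves 2 residual degrees of freedom, 0 of 71 genes passed and 14 had an unadjusted p under 0.05 (limma; smallest adjusted p = 0.18).

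**Figure D5:**
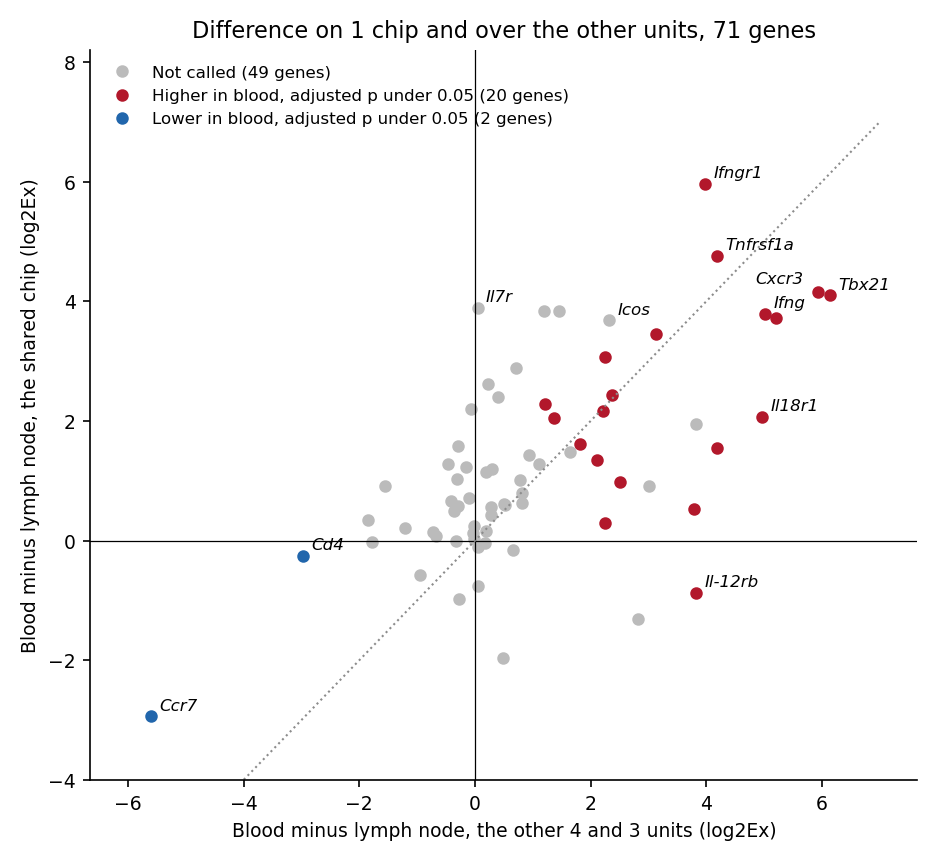
Difference between blood and lymph node in mean log2Ex for the 71 genes tested, in the remaining 4 blood and 3 lymph node units (x axis) and in the 1 animal with both tissues on a chip (y axis); the dotted line marks equal values. Of the 20 genes called higher in blood (red) only Il-12rb lies below 0 on the y axis.

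Spleen and islets of the same animal were also on that chip. In 10 spleen cells Tbx21 and Ifng were not detected, which allows a share of up to 30%, Cxcr3 was detected in 1, and Ccr7 averaged 5.78, near the 6.02 of its lymph node cells. In 22 islet cells Tbx21 averaged 6.58, Ifng 5.84 and Cxcr3 8.75, all above its blood cells at 4.74, 3.79 and 6.12, and Ccr7 averaged 3.55, near the 3.08 of blood. Cd4 was detected in all 22 islet cells. Blood and islet cells differed for other genes: Foxp3 was detected in 17 of 22 islet cells and 2 of 24 blood cells, and Tnfrsf1a in 6 of 22 and 15 of 24. The order by mean log2Ex of Tbx21 in this animal was islets, blood, lymph node and spleen, each from 1 sample. Their kept wells averaged 48.5, 42.7, 34 and 33.9 assays, which is the same order. Whether the number of assays moved these values was not tested.

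Lymph node cells outside the comparison had low Tbx21 as well. The 12-20 cells of 3 lymph node units at 13 weeks averaged 1.81, 0.00 and 1.44, with Ccr7 at 7.39, 7.23 and 2.40. Lymph node cells stained with the tetramer of residues 13-21 at 7 weeks, from the animals M2, M3 and M7, averaged 0.53, 0.00 and 0.37 for Tbx21 and 6.59, 6.36 and 6.13 for Ccr7. The Tbx21 values of these 6 units all lay below the lowest blood unit, at 4.74, whereas 1 of the 13-week units had a Ccr7 value below the highest blood unit, at 3.08. With the 13-week units added to the 4 lymph node units, 17 genes were higher and 2 lower (limma, 5 against 7 units).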

How the data were processed

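Single-cell quantitative PCR was exported by the authors as Ct values with a pass or fail call, in tables of 1 chip each. Per the file headers, all 22 chips were exported with software version 4.0.1 at quality threshold 0.65, with linear (derivative) baseline correction and automatic global Ct thresholds. The series' design text names a later toolset and R scripts (versions: not given in the sources used here). Of 2112 wells, 1829 matched samples by name and the other 283 were not used. Assays were matched to RefSeq symbols, 90 by symbol and 4 by synonym; Il-12rb and Stat5 keep their assay names.

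From the deposited Ct values, log2Ex was computed as described above, without scaling to a reference gene. Unit means were compared with limma 3.58.1 (R 4.3.3; no covariate, two-sided, moderated by eBayes), tested on simulated data, after preparation in Python 3.11.15 with pandas 2.3.3. The units' spread includes whatever their chips and sorts add. Detected assays per well served as the measure of depth, and a share is as precise as its number of wells allows. The text names every gene with an adjusted p under 0.05, index genes of the T helper programs, and members of gene lists. Some genes so selected are not reported here. Members and lists were chosen with earlier results of these data known. No genes were ranked by likeness to Tbx21 or Ccr7, because the units fall into 2 separate groups. Amplicon positions were not used here.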

Additional observations from a re-analysis of the deposited data

Results flagged for a closer look

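In 72 checks of whether 1 unit stood apart from the others of its tissue, 3 did, which is near the 1 in 20 that chance gives. Tnfrsf1a averaged 0.83 in the lymph node of the shared-chip animal, below the other lymph node units, which lay between 1.80 and 1.93. Il10, the anti-inflammatory cytokine, averaged 0.62 in the blood of the shared-chip animal, from 2 of 24 cells, and was not detected in the other 4 blood units. Il21 averaged 0.60 in blood M2, also from 2 of 24 cells, and was not detected in the other 4 blood units. Where all other units are at 0, as for Il10 and Il21, any single value stands apart in this check, whatever its size.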

How the results depend on the processing

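The count of called genes, 22 in the report, stayed within 1.5 times of that under 18 of 24 alternatives to the processing. Among these 18, the higher calls went from 20 to 9 with each unit centred (13 lower) and to 13 in wells with 25 to 45 assays, and 11 and 15 of the 22 genes passed there. It was 0 with all wells, 0 with chip as a fixed block, and 0 with an exact permutation test per gene (26 genes with an unadjusted p under 0.05). The smallest adjusted p that the exact test gave was 0.051. It was 4 on the level in detecting cells, 11 on medians over cells and 10 with 8-week units only, where the lone lymph node unit was assumed to vary like blood. Leaving out a unit gave 14 to 23 calls, with 14 without lymph node M2, and 14 of the 22 genes passed in all 9 such fits. Values turned over for Ccr7 (0.72) and Stat3 (-0.22) on level, for Il-12rb (-0.87) with chip as a fixed block, for Fyn (-0.14) with all wells and for Ccr2 (-1.09 points) on shares; the causes were not tested. With the 8-week blood samples labelled M3 merged into 1 unit, 4 against 4 units, 18 genes were higher and 2 lower. Fyn and Stat3 did not pass there. The difference in assays per well stayed between 6.07 and 8.60 over its alternatives. The share of kept wells passed the threshold under none of its alternatives (main difference -6.71 points, range -17.6 to 1.70 points). The restriction to cells with Cd4 and Cd3e (26 calls) was chosen after seeing the data. No paired analysis was possible because only 1 animal had both tissues. Wells under 20 assays and the cell numbers of 9 to 24 per unit limit what could be detected.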
